A study of Mus musculus with 4 samples.

Results

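Cholesterol and fatty acid synthesis genes are those whose enzymes build sterols and fatty acids from acetyl-CoA, together with the proteins that set the activity of these enzymes. A list of 34 mouse genes was followed. A member was measured by the array probe sets whose platform annotation names that gene and no other, and the probe set with the highest mean over the 4 libraries stood for it. Of the 34 genes, 33 had such a probe set, among 18193 genes on the array that had one, and Acat2, the cytosolic thiolase that opens the sterol branch, had none. The 33 genes comprised 18 sterol enzymes, 6 genes of SREBP control and 9 fatty acid enzymes. Tests were run on probe sets averaging at least 4 on the log2 scale, which took in 32 of the 33 members and 8892 genes in all. The exception was Scd1, a stearoyl-CoA desaturase, which lay at the floor of the table, 2.23, in all 4 libraries.

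Sterols are built through the mevalonate pathway, in which acetyl-CoA units are joined and reduced to mevalonate, converted to isoprenoid diphosphates, and condensed to squalene, which is closed into a ring and trimmed to cholesterol. Farnesyl and geranylgeranyl diphosphate leave this route to be attached to proteins that are anchored in membranes. Both branches are driven by the SREBP transcription factors, which are held in the endoplasmic reticulum with Scap and the Insig proteins while sterols are plentiful and are cut and sent to the nucleus when sterols are scarce. Proliferating blood cells use both routes to make membrane.

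All samples were of BA/F3, a long-established mouse hematopoietic line grown with interleukin 3. By title, source name and genotype, 2 libraries came from cells carrying an inducible human ETV6-RUNX1 fusion gene, also called TEL-AML1, the product of a translocation found in childhood B-cell leukemia, and 2 came from control cells, which the series' design text describes as carrying an empty vector. Cells of all 4 libraries, controls included, were given the inducer mifepristone, at 32.5 pM over 16 h, before extraction of total RNA. The sources do not say whether either line is a single clone, or whether the replicates were separate cultures, so p-values reflect only how far these libraries spread, which may be technical.

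The labels disagreed for both replicate 1 libraries. In the description field, control stands for the sample titled ETV6-RUNX1 replicate 1, and ETV6-RUNX1 for the sample titled control replicate 1, while both replicate 2 libraries carry the same condition in both fields. Titles and design text also speak of chromatin immunoprecipitation, whereas the protocols describe RNA labelled for a mouse 3' expression array, so the values are treated as RNA levels. Every comparison is therefore given by title and by description, and libraries are called by their titles. The array is designed on mouse sequence, and no value used here is known to read the human fusion transcript.

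The values are log2 levels after GCRMA, a background correction, normalization and summary of the probes of each set, and they ran between 2.23 and 16.3. The medians of tested probe sets lay between 8.10 and 8.15 in the 4 libraries. Of 10 B-lineage markers on the array, 6 (Ebf1, Rag1, Rag2, Il7r, Vpreb1 and Cd22) lay within 0.5 of the floor in every library. So did all 7 T and NK cell markers and all 6 fibroblast markers. The 1 tested B-lineage marker, Cd79b, measured 8.31 and 8.44 in the libraries titled ETV6-RUNX1, against 8.81 and 8.62 in those titled control. Mast cell, basophil and myeloid markers summed over 14 genes to 67.6 and 73.1 in the libraries described as ETV6-RUNX1, against 50.4 and 64.8 in those described as control. Elane, Ctsg and Kit were near the floor throughout. Of the 6 tested genes of that list, 5 were higher by description, where 4582 of 8892 tested genes were, and Mpo was lower. Fcer1a passed the filter only through the libraries described as ETV6-RUNX1. Its place in that count was therefore favoured by the filter. Mpo passed through the high value of the library titled control replicate 2. Among genes of the list below the filter, Cpa3 and Mcpt8 were higher and Prg2 and Itgam lower. Erythroid and megakaryocyte markers, 5 genes with Pf4 near the floor, summed to 32.2 and 32.7 in the libraries described as ETV6-RUNX1, against 31.9 and 35.0 in those described as control. By description 3 of its 4 tested genes (Gata1, Epor and Itga2b) were higher, while Klf1, an erythroid transcription factor, measured 5.52 and 5.93 in the libraries described as ETV6-RUNX1, against 7.39 and 8.80 in the libraries described as control. Its difference was -0.91 by title (SE 1.27) and -2.37 by description (SE 0.56, limma adjusted p = 0.174). In the mast cell, basophil and myeloid list, Fcer1a differed by -1.09 by title (SE 3.40) and by 6.46 by description. No test is quoted for the latter, as both libraries described as control lay near the floor, at 2.37 and 2.32. Hdc of that list differed by -0.86 by title (SE 1.90) and by 3.60 by description (SE 0.55, limma adjusted p = 0.142). The part of these markers in the results below was not tested, and in bulk RNA fewer cells of a kind and less RNA per cell cannot be told apart.

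Promoter windows of 8 members are printed first, 6 that hold a CCAAT box and 2, of Elovl6 and Scap, that do not. They were picked as examples after their values were seen. They come from RefSeq on build GRCm38.p6, each being the 250 bases before an annotated start, in the direction of transcription. Capitals mark CCAAT on either strand (read as ATTGG on the other), the letters of the box bound by NF-Y, a partner of SREBP, and in Hmgcs1 also TCACNCCAC, an SREBP-type motif. In Hmgcs1 the matches of both motifs do not overlap.
Hmgcs1, chr13:119690101-119690350, plus strand: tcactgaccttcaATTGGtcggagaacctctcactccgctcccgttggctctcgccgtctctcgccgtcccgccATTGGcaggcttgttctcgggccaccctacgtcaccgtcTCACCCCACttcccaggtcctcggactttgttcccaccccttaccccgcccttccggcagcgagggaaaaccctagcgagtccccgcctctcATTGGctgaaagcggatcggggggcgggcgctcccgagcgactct
Idi1, chr13:8885356-8885605, plus strand: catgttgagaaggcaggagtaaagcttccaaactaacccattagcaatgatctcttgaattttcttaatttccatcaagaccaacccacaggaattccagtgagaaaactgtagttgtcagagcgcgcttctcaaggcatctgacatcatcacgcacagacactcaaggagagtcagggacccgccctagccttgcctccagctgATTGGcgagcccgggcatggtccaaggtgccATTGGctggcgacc
Cyp51, chr5:4104698-4104947, minus strand: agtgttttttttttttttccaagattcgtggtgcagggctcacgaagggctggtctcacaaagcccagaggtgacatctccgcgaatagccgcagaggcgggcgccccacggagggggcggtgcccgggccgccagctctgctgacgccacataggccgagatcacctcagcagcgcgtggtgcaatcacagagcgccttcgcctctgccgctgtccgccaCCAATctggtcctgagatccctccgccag
Msmo1, chr8:64733579-64733828, minus strand: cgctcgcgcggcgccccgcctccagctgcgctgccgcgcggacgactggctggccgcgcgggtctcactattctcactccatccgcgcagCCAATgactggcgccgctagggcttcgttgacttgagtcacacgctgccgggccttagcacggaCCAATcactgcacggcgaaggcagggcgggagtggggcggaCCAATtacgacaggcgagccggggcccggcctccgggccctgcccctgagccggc
Dhcr7, chr7:143829964-143830213, plus strand: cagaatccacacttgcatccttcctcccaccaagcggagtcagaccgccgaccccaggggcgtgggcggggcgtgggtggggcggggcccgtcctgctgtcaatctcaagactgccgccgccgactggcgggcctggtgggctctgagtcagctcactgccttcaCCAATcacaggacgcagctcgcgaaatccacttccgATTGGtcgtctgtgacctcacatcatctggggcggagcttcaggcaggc
Acss2, chr2:155517793-155518042, plus strand: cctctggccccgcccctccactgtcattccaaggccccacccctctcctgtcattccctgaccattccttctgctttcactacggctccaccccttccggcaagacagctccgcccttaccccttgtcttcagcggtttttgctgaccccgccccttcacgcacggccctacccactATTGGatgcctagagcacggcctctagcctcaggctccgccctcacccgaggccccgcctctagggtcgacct
Elovl6, chr3:129532136-129532385, plus strand: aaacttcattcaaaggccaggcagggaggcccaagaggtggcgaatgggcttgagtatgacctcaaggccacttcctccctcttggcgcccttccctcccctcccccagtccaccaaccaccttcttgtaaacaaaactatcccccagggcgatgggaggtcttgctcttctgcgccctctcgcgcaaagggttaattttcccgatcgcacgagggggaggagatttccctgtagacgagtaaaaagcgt
Scap, chr9:110333106-110333355, plus strand: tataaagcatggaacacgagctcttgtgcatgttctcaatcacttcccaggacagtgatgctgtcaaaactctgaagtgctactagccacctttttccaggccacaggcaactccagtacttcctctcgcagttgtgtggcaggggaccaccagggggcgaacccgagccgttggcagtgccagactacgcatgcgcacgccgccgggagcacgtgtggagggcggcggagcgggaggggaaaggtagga

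Of the sterol enzymes, 15 had a promoter window in the table, and each of the 15 held CCAAT in at least 1 of its windows, 15 of 18 windows in all. It was found in 33.85% of all 32851 windows, and 37.49% of the 27025 genes had it in at least 1 window. CCAAT was present in 4 of 5 SREBP control genes with a window and in 2 of 6 fatty acid enzymes. TCACNCCAC occurred in 1 of the 15 sterol enzymes, Hmgcs1, where 1.22% of the 27025 genes had it in at least 1 window. It was found in 1.05% of all windows. A match describes the letters of the window and is not evidence of binding. Fdps, Sqle, Fdft1, Stard4, Scd1, Scd2 and Fads1 are named without a window. Dhcr7 had 3 windows, of which only the printed one held CCAAT. Among the printed examples, Hmgcs1, Idi1, Cyp51 and Msmo1 (lower by description) and Acss2 and Dhcr7 (higher) hold the box. Elovl6 (lower) and Scap (higher) have it in none of their windows. As these examples were picked after their values were seen, they cannot tell whether the box goes with direction. That was not tested.

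**Figure D1:**
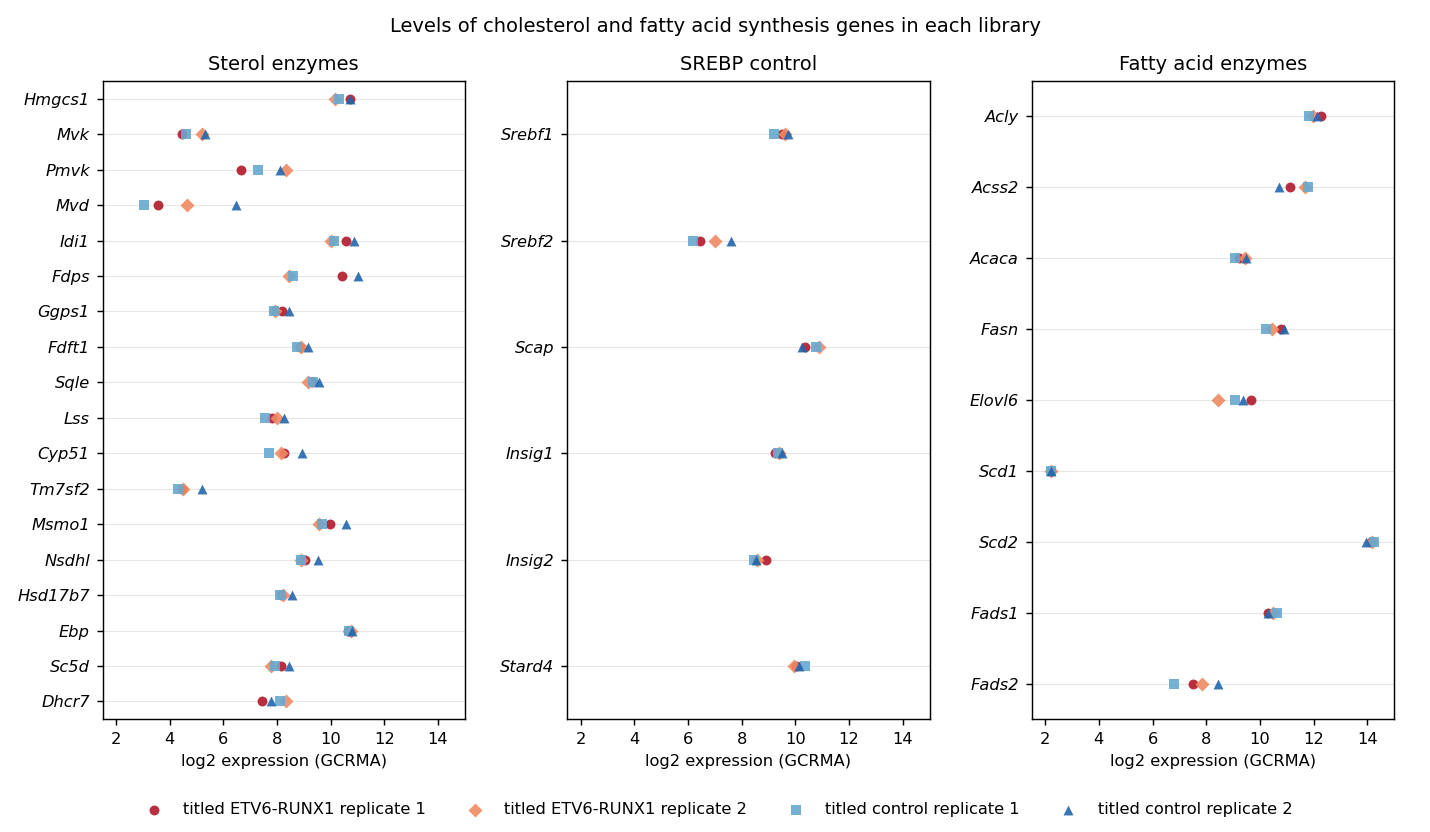
Levels of the 33 members in each library, as log2 GCRMA values on the horizontal axis, with 1 symbol per library and genes ordered by their place in the pathway. The blue triangle, the library titled control replicate 2, stood to the right of the other symbols in 15 of the 18 sterol enzymes, and Scd1 lay at 2.23 in all libraries.

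The first comparison set the ETV6-RUNX1 cells against control cells as the titles name them. No member passed the threshold in limma, 0 of 32, and 0.0% of all 8892 tested genes passed. The lowest unadjusted p of a member was 0.319 (limma, adjusted p = 1.0), and 0.225% of all genes lay at an unadjusted p under 0.05. Sterol enzymes nevertheless leaned one way: 17 of 18 had the lower mean in the libraries titled ETV6-RUNX1, with a median difference of -0.18, against 53.65% of all tested genes lower and a median of -0.02. Lss, lanosterol synthase, had a difference of 0.00 and was the other member of the list. The fatty acid enzymes had 6 of 8 higher, with a median of 0.07, and the SREBP control genes had 3 higher and 3 lower.

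Few members separated the titled groups. Groups did not overlap with the ETV6-RUNX1 libraries lower in Sqle, squalene epoxidase, and Stard4, a carrier of cholesterol inside cells, 2 of 32 members where 5.71% of all genes did. They did not overlap with the ETV6-RUNX1 libraries higher in Insig2, an anchor of the SREBP complex, 1 of 32 members where 3.96% of all genes did. Sqle measured 9.30 and 9.14 in the libraries titled ETV6-RUNX1, against 9.36 and 9.56 in those titled control. Insig2 measured 8.92 and 8.57 in the libraries titled ETV6-RUNX1, against 8.48 and 8.52 in those titled control.

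The lean of the sterol enzymes by title rested on 1 library. The library titled control replicate 2 was the highest of the 4 in 15 of 18 sterol enzymes and the lowest in 0, while it was the highest in 31.12% of all tested genes. Without that library 15 of the 18 enzymes were higher in the libraries titled ETV6-RUNX1, and the median difference was 0.15. Without the library titled control replicate 1 the median was -0.47.

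The second comparison used the description field, in which the ETV6-RUNX1 samples are the libraries titled ETV6-RUNX1 replicate 2 and control replicate 1. Again 0 of 32 members passed, where 0.0% of all tested genes did; the lowest adjusted p of a member was 0.127 in limma. Sterol enzymes had the lower mean in 14 of 18, with a median of -0.40, against 48.36% of all tested genes lower and a median of 0.01. Fatty acid enzymes were lower in 5 of 8, with a median of -0.19, and SREBP control genes in 3 of 6, with a median of -0.10. Without the library titled control replicate 2, 12 of 18 sterol enzymes were lower and their median was -0.054. The SREBP control median was 0.14 without that library and -0.017 without the one titled control replicate 1.

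Non-overlapping groups were common in this comparison across the array. Among members 11 of 32 were lower without overlap, 8 of them sterol enzymes and 3 fatty acid enzymes, where 25.6% of all tested genes were. A further 5 of 32 (Dhcr7, Scap, Acss2, Scd2 and Fads1) were higher without overlap, where 30.3% of all genes were. At an unadjusted p under 0.05 in limma stood 4 members that were lower (Fdps, Idi1, Hmgcs1 and Fasn), where 9.76% of all genes did. Scap and Acss2 were the 2 that were higher at that level, where 13.6% of all genes did.

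**Figure D2:**
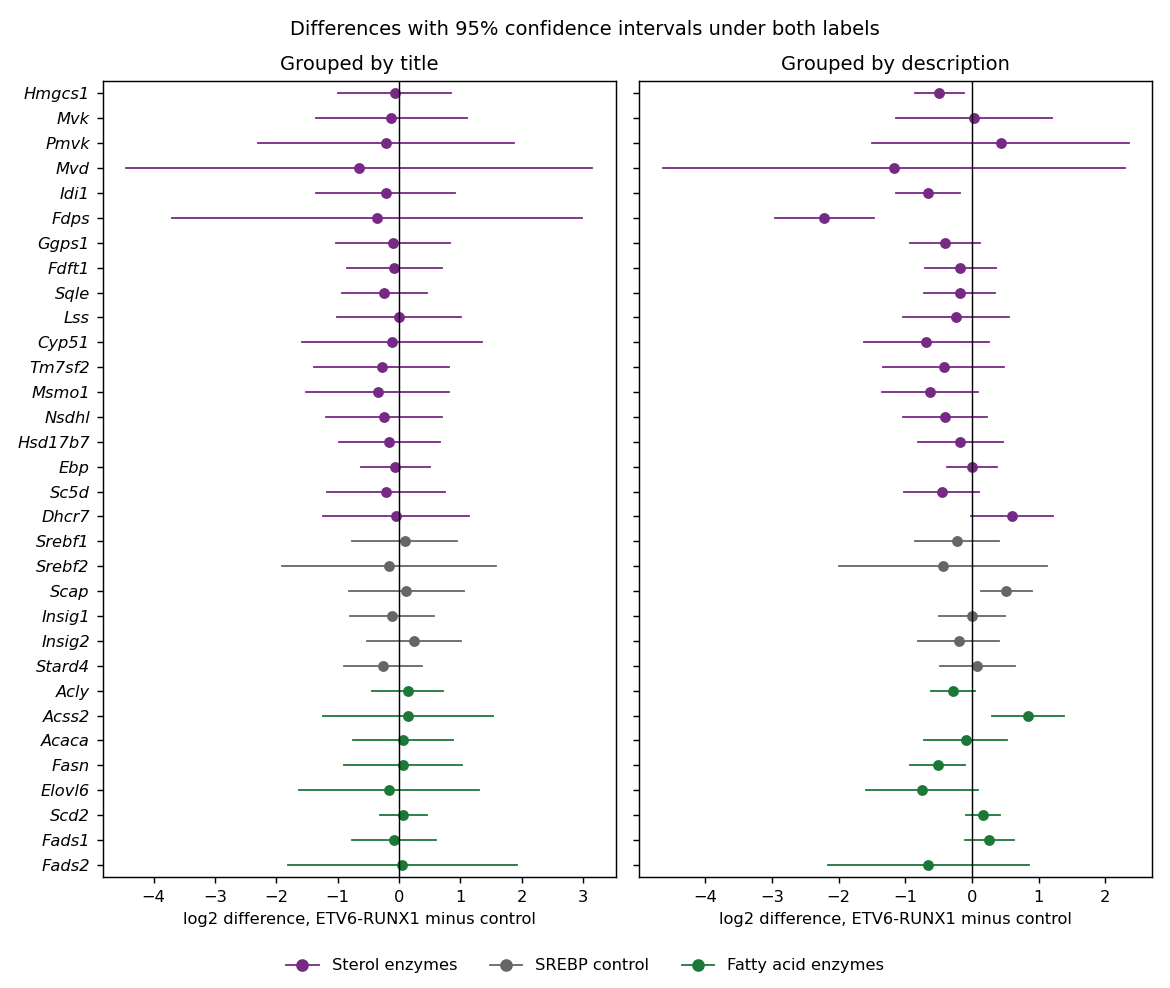
Difference of each of the 32 tested members, ETV6-RUNX1 minus control, on the log2 scale, with libraries grouped by title in the left panel and by description in the right panel. Points are differences of 2 libraries against 2, bars are 95% confidence intervals from limma, and Fdps stands at -0.36 by title and at -2.21 by description.

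Among the sterol enzymes Fdps differed most by description. It encodes farnesyl diphosphate synthase, which makes the compound from which squalene, ubiquinone, dolichol and protein prenyl groups are all derived. Fdps measured 10.43 and 8.46 in the libraries titled ETV6-RUNX1 replicates 1 and 2, against 8.58 and 11.03 in those titled control replicates 1 and 2. The groups overlapped by title and were separate by description, where the mean was 8.52 ± 0.08 in the ETV6-RUNX1 samples and 10.73 ± 0.42 in the controls (SD, n = 2 each). That difference was -2.21 (SE 0.26, 95% interval -2.95 to -1.48, limma adjusted p = 0.127), or 4.64-fold lower. By title the difference was -0.36 with an SE of 1.17.

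Idi1 and Hmgcs1 act before Fdps in the pathway. Idi1 encodes the isomerase that supplies the second isoprene unit used by Fdps. It measured 10.59 and 10.00 in the libraries titled ETV6-RUNX1, against 10.14 and 10.88 in those titled control. By description its difference was -0.66 (SE 0.17, limma adjusted p = 0.187), with separate groups. Hmgcs1, the cytosolic HMG-CoA synthase that starts the mevalonate pathway, measured 10.72 and 10.15 in the libraries titled ETV6-RUNX1, against 10.29 and 10.71 in those titled control. Its difference by description was -0.49 (SE 0.13, limma adjusted p = 0.191), and the samples described as control were nearly equal. This probe set of Hmgcs1 can cross-hybridise. Its other tested probe sets gave -0.44 and -0.36 with separate groups and -0.40 with overlap.

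The other enzymes of the early pathway gave wide intervals. Mvd, the decarboxylase that makes isopentenyl diphosphate, measured 3.56 and 4.65 in the libraries titled ETV6-RUNX1, against 3.04 and 6.48 in those titled control. It spread more than any other member over the 4 libraries, and its difference by description was -1.17 with an SE of 1.22. It passed the filter through the high value of 1 library, and its levels in the other libraries were low. Mvk, mevalonate kinase, differed by 0.03 by description and Pmvk, phosphomevalonate kinase, by 0.43, both with overlapping groups. A second tested probe set of Mvk differed by -0.52. Ggps1, which extends farnesyl to geranylgeranyl diphosphate, differed by -0.40 with separate groups, at a probe set that can cross-hybridise. Its other tested probe sets gave -1.17 and -0.57 with separate groups and -0.37 with overlap.

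Enzymes from squalene onward were mostly lower by description, by smaller amounts than Fdps. Msmo1, the oxidase that removes methyl groups from lanosterol-derived sterols, measured 9.96 and 9.58 in the libraries titled ETV6-RUNX1, against 9.68 and 10.55 in those titled control. Its difference was -0.63 by description (SE 0.25, limma adjusted p = 0.300) and -0.35 by title. Without the library titled control replicate 2 the value by description was -0.33. Cyp51, the lanosterol demethylase, differed by -0.68 (SE 0.33), Sc5d, a sterol desaturase, by -0.46, and Nsdhl, a sterol dehydrogenase, by -0.40, each with separate groups by description. Fdft1, squalene synthase, differed by -0.18, as did Sqle, and Lss by -0.24, with overlapping groups in all 3. Tm7sf2, a sterol reductase, differed by -0.43, and Hsd17b7, a sterol ketoreductase, by -0.17, also with overlap.

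Dhcr7 was among the 4 sterol enzymes with a higher mean by description. It encodes the reductase of the final step to cholesterol. Dhcr7 measured 7.45 and 8.33 in the libraries titled ETV6-RUNX1, against 8.10 and 7.77 in those titled control. By description its mean was 8.21 ± 0.16 in the ETV6-RUNX1 samples and 7.61 ± 0.22 in the controls (SD, n = 2 each), a difference of 0.60 (SE 0.22, limma adjusted p = 0.259), and it was the 1 sterol enzyme higher without overlap. Ebp, the sterol isomerase, differed by 0.00 by description, with a 95% interval of -0.38 to 0.38.

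The SREBP control genes had no common direction by description. Scap, the escort that carries SREBP out of the endoplasmic reticulum, measured 10.37 and 10.87 in the libraries titled ETV6-RUNX1, against 10.76 and 10.23 in those titled control. Its difference by description was 0.51 (SE 0.13, limma adjusted p = 0.190), with separate groups. Srebf1, which encodes the SREBP form tied mainly to fatty acid synthesis, measured 9.51 and 9.60 in the libraries titled ETV6-RUNX1, against 9.19 and 9.73 in those titled control, and differed by -0.22 by description (SE 0.22, limma adjusted p = 0.631). Leaving out single libraries gave -0.43 without that titled ETV6-RUNX1 replicate 2, -0.34 without ETV6-RUNX1 replicate 1, -0.11 without control replicate 2 and -0.015 without control replicate 1. Srebf2, the form tied mainly to sterol synthesis, differed by -0.44 by description, but a second probe set gave 0.27.

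Insig1, an SREBP target and anchor, differed by 0.01 by description with a 95% interval of -0.49 to 0.50. Insig2 differed by -0.20 by description. Stard4 measured 10.03 and 9.96 in the libraries titled ETV6-RUNX1, against 10.37 and 10.14 in those titled control. Its differences were -0.26 by title and 0.08 by description (SE 0.20, limma adjusted p = 0.866). Its other tested probe sets gave -0.25 and -0.52 by description, so its probe sets disagreed in direction.

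The fatty acid enzymes also differed among themselves by description. Acss2, which makes acetyl-CoA from free acetate, measured 11.11 and 11.69 in the libraries titled ETV6-RUNX1, against 11.81 and 10.69 in those titled control. By description the mean was 11.75 ± 0.08 in the ETV6-RUNX1 samples and 10.90 ± 0.30 in the controls (SD, n = 2 each), a difference of 0.84 (SE 0.19, 95% interval 0.31 to 1.38, limma adjusted p = 0.173), or 1.79-fold higher. By title the difference was 0.15 (SE 0.49). Acly, which makes acetyl-CoA from citrate, differed by -0.28 by description with separate groups, the other way from Acss2.

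Fasn, the synthase that builds palmitate, measured 10.79 and 10.44 in the libraries titled ETV6-RUNX1, against 10.21 and 10.88 in those titled control. It differed by -0.51 by description (SE 0.15, limma adjusted p = 0.206), with separate groups. Elovl6, the elongase of palmitate, measured 9.68 and 8.45 in the libraries titled ETV6-RUNX1, against 9.08 and 9.36 in those titled control. Its difference by description was -0.76 (SE 0.30, limma adjusted p = 0.287), also with separate groups. Without the library titled ETV6-RUNX1 replicate 2 it was -0.44. Acaca, the carboxylase that supplies malonyl-CoA, differed by -0.09.

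The desaturases had no common direction by description. Scd2, a stearoyl-CoA desaturase, differed by 0.17 and Fads1 by 0.26, both with separate groups, while Fads2 differed by -0.65 with overlap. Fads1 and Fads2 act on polyunsaturated fatty acids. The other tested probe sets of Scd2 gave -0.23 and -0.61, against 0.17 at the one with the highest mean. Over all members, 29 further probe sets were tested, of which 23 had the sign of the main one by description and 6, in Mvk, Srebf2, Stard4 and Scd2, the other.

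The replicate 2 pair, for which title and description name the same condition, allows a reading free of the disagreement, with 1 library each and no test. Sterol enzymes were lower in the ETV6-RUNX1 library in 16 of 18, with a median of -0.53. Of all tested genes 4378 of 8892 were lower, with a median of 0.00. The control of this pair is the library titled control replicate 2, the highest of the 4 in 15 of the 18 sterol enzymes. Fdps (-2.57) and Mvd (-1.82) were at least 2-fold lower, 2 of 32 members where 4.21% of all tested genes were. Mvd passed the filter only through the library titled control replicate 2, the high side of this pair, so its place in that count was favoured by the filter. None of the 32 members was at least 2-fold higher, where 7.4% of all genes were. Fatty acid enzymes had a median of -0.08 in this pair.

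In the replicate 1 pair, taken by title, the sterol enzymes ran the other way, with 13 of 18 higher in the library titled ETV6-RUNX1 and a median of 0.20. Fdps differed by 1.86 there. The 2 pairs gave opposite signs in 26 of 32 members, and in 6829 of 8892 tested genes, or 76.8%. Across the 32 members the differences of the pairs had a Pearson correlation of -0.85, and across all tested genes -0.78. Genes are not independent replicates, and the members' share of opposite signs stood near that of the whole array.

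**Figure D3:**
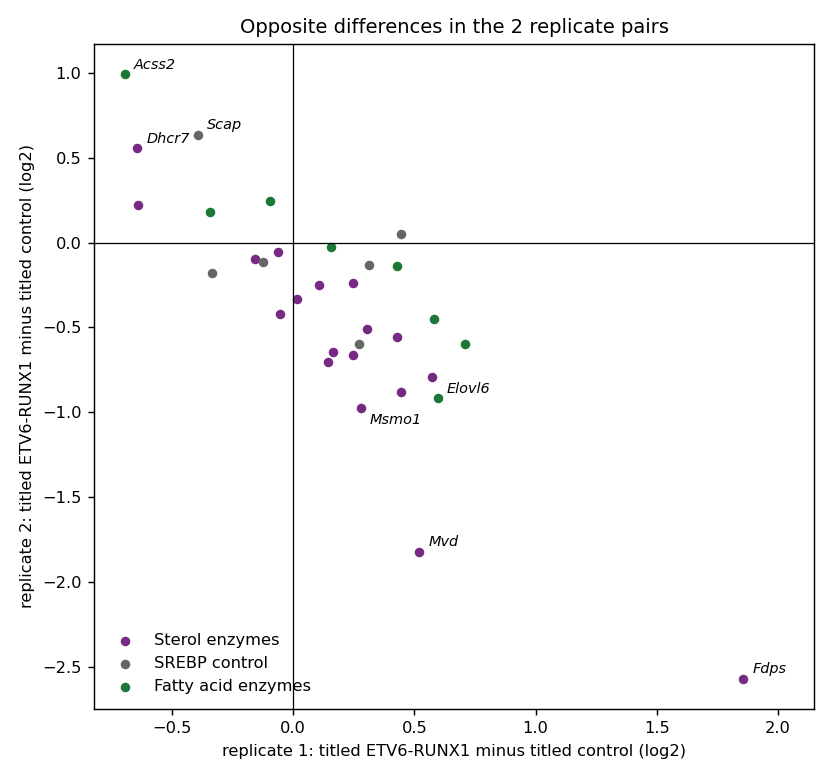
Difference of each tested member in the replicate 1 pair (horizontal axis) and in the replicate 2 pair (vertical axis), titled ETV6-RUNX1 minus titled control on the log2 scale, with 1 point per gene. Most points lie in the upper left and lower right, where the pairs have opposite signs, and Fdps lies farthest out at 1.86 and -2.57.

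Neighbouring steps of lipid metabolism were described from 5 further gene lists, in which 0 genes passed the threshold in either comparison, where 0.0% of all tested genes did. A list of genes that use farnesyl or geranylgeranyl diphosphate, or act on products made from them, was lower by description in 7 of 11. Its median was -0.25, and 48.36% of all tested genes were lower. By title 6 of the 11 were lower, with a median of -0.016. Nus1, a subunit of the enzyme that makes dolichol, measured 10.59 and 9.64 in the libraries titled ETV6-RUNX1, against 9.55 and 10.75 in those titled control. Its difference was -0.03 by title (SE 0.60) and -1.07 by description (SE 0.14, limma adjusted p = 0.132). Pdss2, which makes the side chain of ubiquinone, differed by -0.89 (limma adjusted p = 0.171), and Rabggtb, a subunit of the transferase that prenylates Rab proteins, by -0.62 (limma adjusted p = 0.200).

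Sterol transport and storage genes leaned the opposite way, with 8 of 10 higher by description and a median of 0.51. Of all tested genes 4582 of 8892 were higher. The lists were chosen with earlier results of these data known, so the contrast between them is a description and not a test. Their groups did not overlap in 6 of the 10, all higher, where 30.3% of all genes were. Abca1, which exports cholesterol from the cell, measured 10.19 and 10.60 in the libraries titled ETV6-RUNX1, against 11.21 and 9.16 in those titled control, a difference by description of 1.23 (SE 0.45, limma adjusted p = 0.265). Npc2, which hands cholesterol out of the lysosome, differed by 0.62 (limma adjusted p = 0.151), and Osbpl2, an oxysterol-binding protein family member, by 0.96 (SE 0.15, limma adjusted p = 0.144). The library titled control replicate 2 was the lowest of the 4 in 8 of these 10 genes, where it was the lowest in 25.72% of all tested genes.

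Mylip, a ubiquitin ligase that acts on lipoprotein receptors, differed by 1.01 and Npc1, the partner of Npc2, by 0.81 by description, and both were named after their values were seen. By title the median of the sterol transport and storage list was 0.15.

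Genes that cut or retain SREBP, beyond the members, had 3 lower and 4 higher by description, with a median of 0.16. Mbtps2, the protease that releases SREBP from the membrane, differed by -0.62 (SE 0.19, limma adjusted p = 0.221). Erlin2 and Rnf139, which take part in sterol-dependent protein turnover in the endoplasmic reticulum, differed by 0.36 and 0.35.

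Genes of acyl elongation and precursor supply were lower in 8 of 14, with a median of -0.20. Hacd2, a dehydratase of the elongation cycle, measured 9.23 and 8.17 in the libraries titled ETV6-RUNX1, against 7.94 and 9.44 in those titled control. Its difference was 0.00 by title (SE 0.71) and -1.28 by description (SE 0.19, limma adjusted p = 0.138). Hacd3 of the same family differed by 0.54 by description (SE 0.07, limma adjusted p = 0.132). Acsl3, which activates long-chain fatty acids, differed by -0.79 (limma adjusted p = 0.164).

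Fatty acid oxidation genes were lower in 10 of 14, with a median of -0.04. Cpt1a, which admits fatty acids to mitochondria, measured 10.48 and 11.97 in the libraries titled ETV6-RUNX1, against 11.85 and 9.52 in those titled control. Its difference was 0.54 by title (SE 1.03) and 1.91 by description (SE 0.37, limma adjusted p = 0.155). Its partner Cpt2 differed by 0.47 (limma adjusted p = 0.244) and Acadm, an acyl-CoA dehydrogenase, by -0.54 (limma adjusted p = 0.177).

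**Figure D4:**
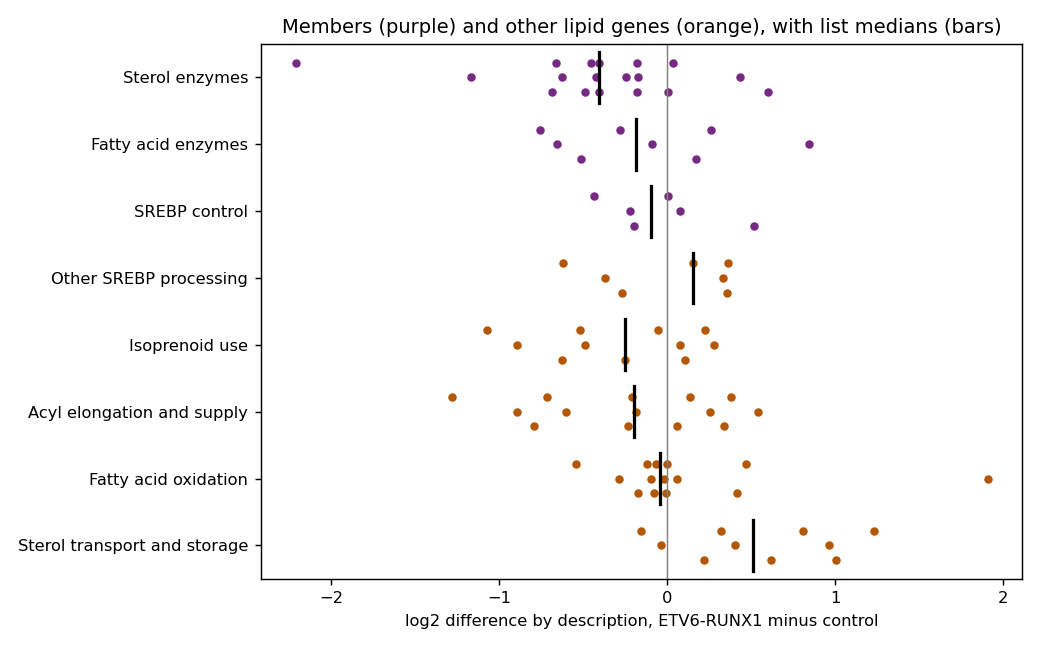
Difference by description, ETV6-RUNX1 minus control on the log2 scale, of the tested genes of the 3 member lists (purple) and the 5 other lipid lists (orange), with 1 point per gene and a black bar at each list's median. Medians lie at -0.40 for sterol enzymes and at 0.51 for sterol transport and storage genes. The lists were chosen with earlier results of these data known.

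Measures of RNA quality were set beside these values. The 3' minus 5' difference of beta-actin was 0.63 and 0.64 in the libraries described as ETV6-RUNX1, against 0.70 and 0.63 in those described as control. For dap, a bacterial transcript probed at both ends on the array, it was 4.43 and 3.71 in the libraries described as ETV6-RUNX1, against 3.10 and 3.19 in those described as control. For Gapdh the 3' minus 5' difference was -0.34 and -0.30 in the libraries described as ETV6-RUNX1, against -0.31 and -0.37 in those described as control. The dap difference thus moved with the described groups, while those of beta-actin and Gapdh overlapped. Dap is a spike and not a transcript of the cells, and the part of its difference in the results was not tested.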

How the data were processed

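Levels of RNA were measured on 4 mouse 3' expression arrays, 2 per titled group. The authors deposited log2 values for 45101 probe sets, and the tool named is GCRMA 2.28.0, per the submitters' processing notes; the log2 scale was read from the values, and no further step is given in the sources used here. Gene names came from the annotation of the platform, in which 34958 probe sets had 1 symbol, 932 several and 9211 none, and all 33 members kept their symbol when matched to RefSeq by Entrez identifier. Control probe sets (64) were left out, and probe sets with a mean of at least 4 over the libraries were tested, 17720 in all. Of 79 probe sets of members, 61 were tested and 13 were near the floor in all libraries, where differences are compressed. Members standing by a probe set that can cross-hybridise (s_at or x_at) numbered 7: Hmgcs1, Mvd, Ggps1, Fdft1, Lss, Hsd17b7 and Acly.

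Linear models were fitted to all tested probe sets in R 4.3.3 with limma 3.58.1 (lmFit, eBayes, trend on), leaving 2 residual degrees of freedom. Tests were two-sided, p-values were adjusted by Benjamini-Hochberg over those 17720, and the threshold was 0.05. The fit was run on simulated data with known differences, as a check of the code and not of the results given here. Arrays carry no read depth, and their number limits the precision. Members and lists were chosen with earlier results of these data known. Any member could be named. Values per library are given for the 5 sterol, 3 SREBP control and 3 fatty acid genes with the smallest p in either comparison, and for Sqle, Insig2 and Mvd, which were added after their values were seen. From each other list the 3 genes with the smallest p by description are named. Alternatives were other filters, scalings, probe set rules, a replicate block, no trend and leaving out each library. Promoter windows are those of the RefSeq table used here.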

Additional observations from a re-analysis of the deposited data

How the results depend on the processing

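The number of members past the threshold was 0 in limma under every alternative that kept all libraries, by title and by description. Fits with a library left out leave a group without a replicate, so their calls are not counted and only their differences are given. The replicate block also leaves fewer residual degrees of freedom than the main fit. By title 0 probe sets passed, with 50 at an unadjusted p under 0.05. By description 2 probe sets passed, neither of them standing for a member, with 3494 at an unadjusted p under 0.05. The number that passed by description was 0 with no filter, 10 with medians of tested probe sets made equal, 12 with quantile normalization and 0 with a replicate block. Replicate numbers were checked for pairing: deviations of same-numbered libraries had a correlation of -0.20 by title and 0.59 by description, and with 2 pairs the libraries share only a number. With the replicate block, probe sets by description at an unadjusted p under 0.05 numbered 5579, Fdps had an adjusted p of 0.0593 in limma and Acss2 one of 0.0691, and by title 0 passed. Crossing the numbers by title, an alternative chosen after seeing the data, gave 0 calls and 70 at an unadjusted p under 0.05. The sterol median by title ranged between -0.47 and 0.15 with each library left out, and the fatty acid median between -0.069 and 0.12. By description the sterol median ranged between -0.51 and -0.054 on leaving out libraries, and the fatty acid median between -0.32 and -0.018, and the SREBP control median between -0.13 and 0.14. The fatty acid median by description was -0.091 with no filter, -0.22 with equal medians and -0.30 with the mean of all tested probe sets of each gene. Stard4 by description turned to -0.23 with the mean of its probe sets, and ranged between -0.12 and 0.28 with each library left out. By description Msmo1 ranged between -0.92 and -0.33, Elovl6 between -1.07 and -0.44 and Srebf1 between -0.43 and -0.015. Fdps lay between -2.51 and -1.92 by description with each library left out. Its described groups do not overlap, so leaving out a library could not change its sign. The cause of these shifts was not tested. Sterol enzymes lower by description numbered 16 of 18 with equal medians and 15 of 18 with quantile normalization.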
